A study of Mus musculus with 2 samples.

Results

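Mir221 and Mir222 are a pair of neighbouring microRNA (miRNA) genes on the mouse X chromosome. They were taken as the rows of the deposited count tables whose Ensembl identifiers belong to these genes in the GENCODE mouse annotation, which gave 2 of 1973 listed miRNA genes. Short RNA was sequenced from livers of B6NCrl mouse embryos at day 12.5, with males and females pooled and no treatment or mutation named in the labels. There were 2 biological replicates of this single group, replicate 1 from 120 embryos and replicate 2 from 88 embryos. Since the 2 pools carry one donor identifier in the labels, the spread between them may in part be technical. With 1 group, the results are the levels of the pair, its levels beside those of the erythroid genes Mir451a and Mir144, and the differences between the 2 libraries.

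An miRNA is cut from a hairpin and guides an Argonaute protein to messenger RNAs that pair with its seed, the bases near its 5′ end, which lowers the output of those messages. miR-221 and miR-222 are made from one primary transcript and are known to repress Kit, the receptor for stem cell factor, which erythroid progenitors need to expand. They are known to fall as erythroid cells mature, while miR-144 and miR-451a, which share a transcript driven by the erythroid factor GATA1, rise. The fetal liver is a main site of blood formation, and it also holds endothelial cells, which are known to express the pair. The tables hold miRNA genes only, so neither Kit nor any other target message was measured.

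The mature 3p arms of the pair are shown because they carry the seed by which both genes reach the same targets. They are taken from RefSeq on GRCm38.p6, the assembly also called mm10, and run 5′ to 3′ with the seed, bases 2 to 8, in capitals.
miR-221-3p: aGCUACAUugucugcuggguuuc
miR-222-3p: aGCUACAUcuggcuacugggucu
Both arms are 23 bases long, and their first 8 bases are identical. Compared position by position from the 5′ end without gaps, 11 of 23 positions hold the same base. A gap after the seed would bring more bases into register, and likeness with gaps was not counted. Of 1738 mature mouse miRNAs in the RefSeq table, only miR-1928 has this seed as well.
miR-1928: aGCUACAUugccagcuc
Mir1928 lies on chromosome 1 and had 0 sense counts in replicate 1 and in replicate 2. Taken as at most 3 counts, a 0 allows up to 0.870 and 0.849 counts per 1000000. All uniquely aligned sense counts on genes with this seed were therefore on the pair.

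The comparators have other seeds. miR-451a is cut by Argonaute 2 without Dicer, and miR-144 is cut from its hairpin in the usual way.
miR-451a: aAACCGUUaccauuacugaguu
miR-144-3p: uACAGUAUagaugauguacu

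The hairpins are shown because the tables count reads per gene, so reads of both arms of a hairpin are summed. Capitals mark the 3p arm.
Mir221 hairpin: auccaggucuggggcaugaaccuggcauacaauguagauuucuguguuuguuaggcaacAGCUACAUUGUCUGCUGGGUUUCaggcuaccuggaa
Mir222 hairpin: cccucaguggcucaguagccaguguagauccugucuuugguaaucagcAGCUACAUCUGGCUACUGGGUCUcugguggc
Mir221 (ENSMUSG00000065422.1) lies at chrX:19146294-19146388 and Mir222 (ENSMUSG00000065471.1) at chrX:19146893-19146971, both on the minus strand. Mir222 is thus the upstream member, and 504 bases separate the hairpins. GENCODE M21 annotates no other gene over the span of 678 bases, so both hairpins are intergenic there. The nearest gene upstream is Gm14636, a noncoding transcript on the same strand, at a distance of 10009 bases. In the fold predicted by RNAfold, 21 of the 23 bases of the 3p arm are paired in Mir221 and 19 of 23 in Mir222. The longest run of bases shared by the 2 hairpins is 9. The longest run that either shares with any other RefSeq miRNA hairpin is 12 bases, so neither falls among the genes that share 20 bases with a second locus and whose counts are uncertain.

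The seed match of the pair, ATGTAGC on the message strand, was looked for in the 3′ untranslated regions of 7 known or reported targets. This shows where the 2 miRNAs can pair, not that they act there. Kit holds 2 matches in a region of 2177 bases, both followed by an A.
Kit, chr5:75654972-75655001, plus strand: tccttaatgatgggagatatATGTAGCaag
Kit, chr5:75656503-75656532, plus strand: ctttttttgtaaatattgaaATGTAGCaat
Cdkn1b, which encodes the cell cycle inhibitor p27, holds 1 match.
Cdkn1b, chr6:134924411-134924440, plus strand: tctgcctctaaaagcattggATGTAGCatt
The related inhibitor Cdkn1c and the cell death gene Bbc3 hold 1 match each, as does Timp3, an inhibitor of matrix proteases, and Ets1, a transcription factor, holds 2. Foxo3, a transcription factor, holds none in its longest annotated region. For background, 9.42% of the longest 3′ regions of 20971 protein-coding genes hold the motif. Among 1335 regions within 10% of the length of that of Kit, 15.1% do. The genes were chosen as targets reported for these miRNAs, and not every gene of that list is given, so the matches are a description and their number is not a result.

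Levels are counts on the sense strand per 1000000 sense counts on miRNA genes (CPM). The libraries held 3447858 and 3534816 such counts (replicates 1 and 2) of 11057424 and 11013976 reads. Intervals are exact 95% intervals computed from the counts alone, so they cover counting error only. The reads carry no molecular identifiers, so reads are counted and not molecules. Mir122, the miRNA that defines hepatocytes and so bears on the tissue label, was present at 54020 ± 9747 CPM (SD, n = 2).

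Mir221 was the higher of the pair in both libraries, and both genes lay above the median of the tested genes. Mir221 had 1149 counts, or 333 CPM (314 to 353), in replicate 1 and 1191 counts, or 337 CPM (318 to 357), in replicate 2, a mean of 335 ± 2.60 CPM (SD, n = 2). Mir222 had 860 counts, or 249 CPM (233 to 267), in replicate 1 and 772 counts, or 218 CPM (203 to 234), in replicate 2, a mean of 234 ± 21.9 CPM. The lowest value of Mir221 lay above the highest value of Mir222, and their intervals did not overlap in either library. By mean level Mir221 ranked 147 and Mir222 ranked 170 of the listed genes. The 464 genes that reached 10 counts over the libraries together had a median of 52.7 CPM. Neither member had a count on the opposite strand.

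Summed, the pair stood at 583 CPM (557 to 609) in replicate 1 and 555 CPM (531 to 580) in replicate 2. Its mean of 569 ± 19.3 CPM (SD, n = 2) is 0.0569% ± 0.00193 of all miRNA gene counts. In bulk tissue, fewer cells that express the pair and less of it per cell cannot be told apart. The plot of rank against level places both members below both erythroid genes and above the median gene.

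**Figure D1:**
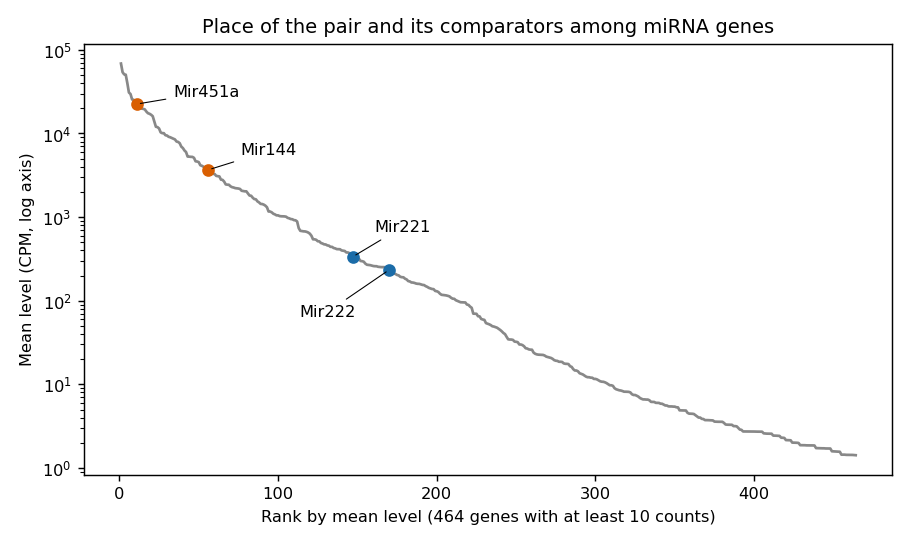
Mean level in CPM (log axis) against rank for the 464 miRNA genes with at least 10 counts over both libraries. Blue points mark Mir221 (rank 147) and Mir222 (rank 170), and orange points mark Mir451a and Mir144.

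Mir221 held the larger part of the counts of the pair in both pools, and its part was a little larger in replicate 2. It made up 57.2% (exact binomial 95% interval 55.0 to 59.4) of the counts of the pair in replicate 1 and 60.7% (58.5 to 62.8) in replicate 2. The ratio of Mir222 to Mir221 was 0.748 (0.684 to 0.818) in replicate 1 and 0.648 (0.591 to 0.710) in replicate 2, with a mean of 0.698 ± 0.0709 (SD, n = 2). The ratio in replicate 2 was 0.866 times that in replicate 1 (exact conditional 95% interval 0.762 to 0.985, counting error only). Capture of each miRNA was not measured, so this need not be the ratio of molecules in the cells.

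The erythroid comparators stood well above the pair in both libraries. Mir451a was at 12422 CPM in replicate 1 and 32496 CPM in replicate 2 (22459 ± 14195, SD, n = 2), and Mir144 at 3300 and 4042 CPM (3671 ± 525). Mir451a exceeded the summed pair 21.3-fold (20.4 to 22.3) in replicate 1 and 58.5-fold (56.0 to 61.2) in replicate 2. Mir144 exceeded it 5.66-fold (5.40 to 5.94) and 7.28-fold (6.94 to 7.63). The first ratio changed 2.74-fold between the pools and the second 1.29-fold. The summed pair itself had a log2 ratio of replicate 2 over replicate 1 of -0.01 (-0.11 to 0.08, TMM-scaled).

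**Figure D2:**
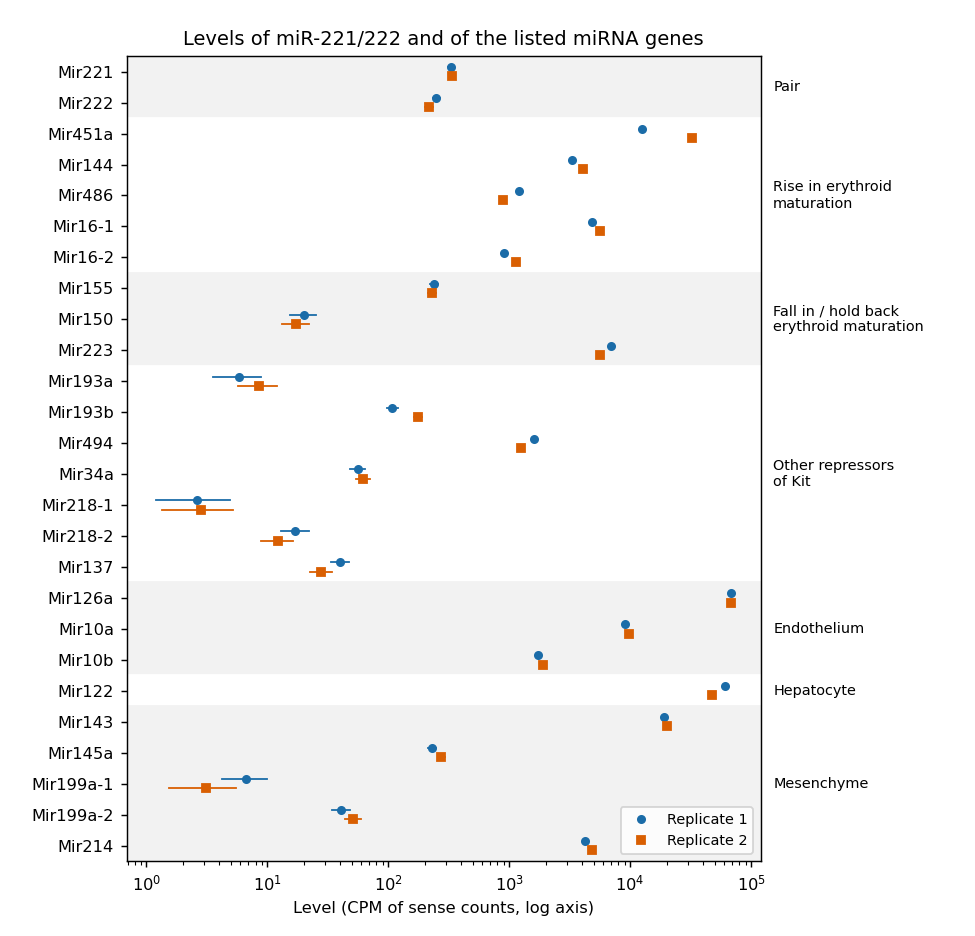
Level in CPM (log axis) of the pair and of each listed gene in replicate 1 (blue circles) and replicate 2 (orange squares), with exact 95% Poisson intervals that are narrower than the symbols for abundant genes. The 2 libraries lie close together for Mir221 and Mir222 and apart for Mir451a, at 12422 and 32496 CPM.

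Neither member passed the test between the 2 libraries, while both erythroid comparators did. The test was a two-sided exact binomial test on library sizes scaled by TMM, which levels the bulk of genes between libraries, with Benjamini-Hochberg adjustment over the 464 genes. It allows for counting error only and compares these libraries, not conditions. It called 22% of the genes higher and 18.3% lower in replicate 2, 40.3% in all. Mir221 had a log2 ratio of 0.07 (95% interval -0.05 to 0.19, exact binomial adjusted p = 0.385). Mir222 had a log2 ratio of -0.14 (-0.28 to 0.00, exact binomial adjusted p = 0.126). When total sense counts set the scale, Mir222 was called lower, at -0.19 (exact binomial adjusted p = 0.0209), a scale on which 21.8% of genes were lower. The 2 members had ratios of opposite sign under each scaling tried. Both were smaller in size than the median of 0.26 over the 464 genes, and than the 0.18 over the 289 genes with at least 100 counts.

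Both comparators were higher in replicate 2. The log2 ratio was 1.44 (1.43 to 1.46) for Mir451a and 0.35 (0.31 to 0.38) for Mir144. Of the 464 genes, 447 had a smaller ratio in size than Mir451a, 66 a smaller one than Mir221 and 123 a smaller one than Mir222. In the negative binomial exact test of edgeR with an assumed coefficient of variation of 0.1, which called 2.59% of genes, Mir451a passed (adjusted p = 2.2e-09). Mir144 did not (adjusted p = 0.564), nor did Mir221 (adjusted p = 0.978) or Mir222 (adjusted p = 0.920). Each side of that test is 1 library.

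**Figure D3:**
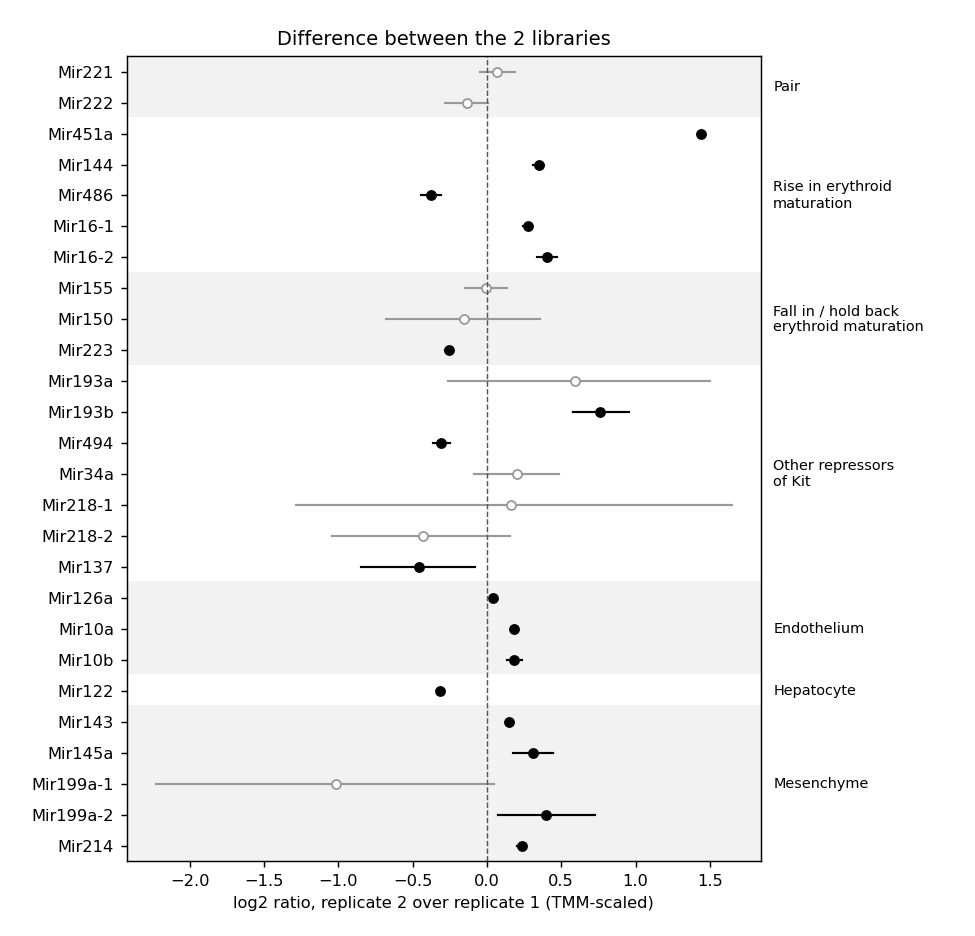
log2 ratio of replicate 2 over replicate 1, TMM-scaled, with exact 95% intervals. Filled black points passed the exact binomial test and open grey points did not. Both members of the pair are open, at 0.07 and -0.14, and Mir451a lies farthest right at 1.44.

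The listed miRNAs known to rise with erythroid maturation, Mir451a and Mir144 among them, were called in both directions. Of 5 listed genes, 4 were higher and 1 lower in replicate 2. Their median log2 ratio, which is that of Mir144, was 0.35, beside 0.02 over all genes tested. Of all genes tested, 22% were higher and 18.3% lower. Beside Mir451a and Mir144, the higher genes were the Mir16 copies, Mir16-1 at 0.27 and Mir16-2 at 0.40, which share 20 bases and are uncertain. The lower one was Mir486, which acts in late red cell maturation, at 1204 CPM in replicate 1 and 892 CPM in replicate 2. Its log2 ratio was -0.38. Mir486 also had 363 and 301 counts on the opposite strand (replicates 1 and 2), which its sense level leaves out. The rule on shared bases does not look at overlapping loci, so its count may be uncertain too. These calls rest on counting error. In edgeR at 0.1, Mir451a alone of the 5 passed, and Mir486 (adjusted p = 0.531), Mir16-1 (adjusted p = 0.688) and Mir16-2 (adjusted p = 0.491) did not.

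Of 3 other miRNAs reported to fall in, or hold back, erythroid maturation, 0 were higher and 1 was lower, with a median log2 ratio of -0.16. Calls took in 40.3% of all genes tested. Mir155 lay at 239 CPM in replicate 1 and 230 CPM in replicate 2, beside 249 and 218 CPM for Mir222. Mir150, a lymphoid miRNA, was far lower at 20.01 and 17.3 CPM. Mir223, which is also the myeloid marker, was the called one, at 6929 and 5584 CPM with a log2 ratio of -0.26 (-0.28 to -0.23).

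Of 7 other miRNAs reported to repress Kit, 1 was higher, 2 were lower and 4 were not called, with a median log2 ratio of 0.16. Over all genes tested 40.3% were called, so calls were about as frequent in this list as elsewhere. Mir494, of the imprinted Dlk1-Dio3 cluster, was the only one above the pair, at 1611 CPM in replicate 1 and 1254 CPM in replicate 2, and it was called lower with a log2 ratio of -0.31. Mir193b, at 108 and 177 CPM, was called higher with 0.76 (0.58 to 0.95). Mir137, at 40.0 and 28.0 CPM, was called lower with -0.46 (-0.85 to -0.08). In edgeR, Mir193b passed at 0.1 (adjusted p = 0.0344) and not at the estimated coefficient (adjusted p = 1), and Mir494 (adjusted p = 0.610) and Mir137 (adjusted p = 0.597) did not pass at 0.1. Mir34a, a p53 target, lay at 56.0 and 62.0 CPM, and Mir193a and the 2 Mir218 copies lay at or below 17.1 CPM in both libraries. The Mir218 copies share 20 bases and are uncertain. By these counts, Mir221 and Mir222 were, after Mir494, the most abundant genes among the miRNAs listed here as repressors of Kit. The place of the Mir218 copies in this order is uncertain.

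Markers of the cell types in this organ were set beside the pair. The 3 erythroid markers summed to 16926 CPM in replicate 1 and 37430 CPM in replicate 2, with 2 higher and 1 lower. Most of this difference lay in Mir451a, at 12422 and 32496 CPM. Mir144 stood at 3300 and 4042 CPM, and Mir486 at 1204 and 892 CPM. The 3 endothelial markers, all called higher by TMM scaling, summed to 79577 and 79912 CPM. The largest of them, Mir126a, exceeded the pair 118-fold (113 to 123) in replicate 1 and 123-fold (117 to 128) in replicate 2. Log2 ratios of replicate 2 over replicate 1 were 0.04 for Mir126a and 0.18 for both Mir10a and Mir10b. Mir122 of hepatocytes was lower, with a log2 ratio of -0.32 and levels of 60913 and 47128 CPM. The 5 mesenchyme markers, with Mir145 matched as Mir145a through RefSeq synonyms, summed to 23576 and 25485 CPM, with 4 higher, or 3 on total sense counts. Mir199a-1 went the other way and was not called, at 6.67 and 3.11 CPM with a log2 ratio of -1.01 (-2.23 to 0.05). Mir199a-1 and Mir199a-2, which was called higher, share 20 bases and are uncertain. Of all genes, 22% were higher and 18.3% lower by TMM scaling. The marker calls rest on counting error. In edgeR at 0.1, Mir451a alone of these markers passed. Those that did not pass in edgeR included Mir122 (adjusted p = 0.597), Mir126a (adjusted p = 0.995) and Mir143 (adjusted p = 0.862). No marker of these lists was at 0 counts in either library. The endothelial calls depend on the scale, with 2 higher and 1 lower on total sense counts, a scale on which 16.6% of all genes were higher. The part of these cell types in the levels of the pair was not tested, and pool size cannot be told apart from the library.

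The genes nearest to the pair in level were found by Euclidean distance of log2 CPM over the 2 libraries among the 464 genes. For Mir221 they were Mir27a (distance 0.13, shares 20 bases and is uncertain), Mir328 (0.17) and Mir493 (0.21). For Mir222 they were Mirlet7b (0.09), Mir155 (0.09) and Mir412 (0.10). With 2 libraries of 1 tissue this measures likeness in level and hardly any in pattern. In order of mean level, Mir328 stood at 317 ± 30.5 CPM (SD, n = 2), Mir493 at 332 ± 46.0, Mir221 at 335 ± 2.60 and Mir27a at 351 ± 23.2. Lower down, Mir412 stood at 224 ± 14.3 CPM, Mir222 at 234 ± 21.9, Mir155 at 234 ± 6.76 and Mirlet7b at 244 ± 27.8. In neither order did neighbours differ beyond their spread. The genes were chosen for nearness in level, so this follows from the choice and is not a result. Mir155 is also one of the listed miRNAs that fall in erythroid maturation.

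On chromosome X, Mir221 ranked 17 and Mir222 ranked 20 of 44 tested miRNA genes, whose median was 165 CPM. Of the other 42 tested X-linked genes, 9 were higher and 12 lower in replicate 2 and 21 were not called, with a median log2 ratio of 0.00. Over all genes tested, 22% were higher and 18.3% lower.

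Among miRNA genes that form a cluster of 2 on one strand, the members of this pair were among the most alike in counts. There were 20 such clusters with neighbours within 10 kb and at least 100 counts for each member. By the geometric mean over the libraries, Mir221 exceeded Mir222 1.44-fold, the third smallest difference, beside a median of 5.16-fold. The highest was 1182-fold for Mir99a and Mirlet7c-1, a cluster that is uncertain because of shared bases. Among clusters without shared bases the highest was 78.3-fold, for Mir143 and Mir145a. Smaller than that of the pair were the differences of Mir298 and Mir296 (1.24-fold) and of Mir181c and Mir181d (1.27-fold). The next larger than that of the pair was the difference of Mir374b and Mir421 (1.57-fold). The order of the 2 members was the same in both libraries in all 20 clusters, and the downstream gene was the higher in 10. Among the 11 clusters in which no member shares 20 bases with another locus, the pair again had the third smallest difference.

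The cluster of Mir144 and Mir451a was less even. Its downstream gene Mir451a exceeded Mir144 3.76-fold (3.69 to 3.84) in replicate 1 and 8.04-fold (7.90 to 8.18) in replicate 2, a change of 1.09 on the log2 scale. For Mir222 and Mir221 the change was 0.21, close to the median size of 0.21 over the 20 clusters. Of the 20 clusters, only Mir100 and Mirlet7a-2 changed by more than Mir144 and Mir451a, by -1.17, and the count of Mirlet7a-2 is uncertain because of shared bases.

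**Figure D4:**
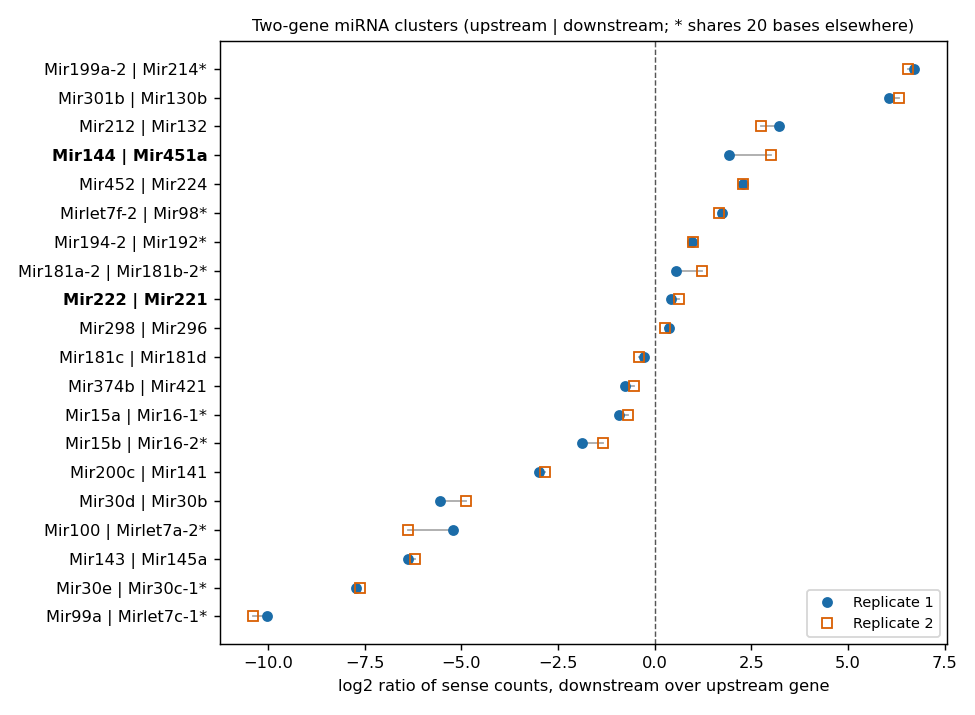
log2 ratio of sense counts, downstream over upstream gene, in each of the 20 clusters of 2 miRNA genes, for replicate 1 (blue circles) and replicate 2 (open orange squares). The bold rows are Mir222 and Mir221, near 0 with a change of 0.21, and Mir144 and Mir451a, whose points lie 1.09 apart.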

How the data were processed

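Each library's table, as deposited by the authors, holds unnormalized read counts for 1973 miRNA genes, on both strands together, the sense strand and the opposite strand. Per the submitters' own lists of files, the assembly was mm10 and the annotation GENCODE M4. No aligner, counter or RNA extraction method is given in the sources used here. Sense counts were used. Reads that belong to no gene stayed out of library sizes: 29.4% and 25.8% unmapped (replicates 1 and 2), 28.8% and 31.1% aligned to several places, 10.6% and 11.0% on no listed gene.

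Names and coordinates came from GENCODE M21 on the same assembly, with 1894 identifiers matched. Both libraries form 1 group, so no condition was compared. TMM scaling and the negative binomial test used edgeR 4.0.16, size factors DESeq2 1.42.0, exact tests scipy 1.17.1 and folds RNAfold 2.7.2. Genes with at least 10 counts over both libraries were tested at an adjusted p of 0.05, and log2 ratios had 0.5 counts added. The binomial test was run on data simulated with counting error only. That is the error it assumes, so the run cannot show how the test handles other variation. Named genes were the members, Mir451a, Mir144, all list members, genes with the same seed, the 3 nearest in level and the 3 nearest clusters. The members and lists were chosen with earlier results of these data known. Alternatives were other scalings, the counts of both strands, other filters and error models, each library alone and other cluster limits. One further target gene of the list is not reported here.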

Additional observations from a re-analysis of the deposited data

Results flagged for a closer look

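Counts on the opposite strand, which the levels above do not use, exceeded the limit of 3 counts in both libraries for 3 of the named genes, and the pair was not among them. Mir486 had 363 opposite-strand counts in replicate 1 and 301 in replicate 2. Mir126a had 39 and 49, and Mirlet7b had 4 in each library.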

How the results depend on the processing

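Each library alone (n = 2) gave 333 to 337 CPM for Mir221, 218 to 249 CPM for Mir222, 0.648 to 0.748 for their ratio and 21.3 to 58.5 for the ratio of Mir451a to the pair. With the counts of both strands as the base, Mir221 stood at 303 CPM, Mir222 at 211 CPM and the pair at 515 CPM. Per 1000000 of all reads, the levels were 106 for Mir221, 73.9 for Mir222, 180.0 for the pair, 7151 for Mir451a and 1163 for Mir144. These are changes of denominator. The ratios within a library were unaffected by scaling. Of 464 genes, 102 were called higher and 85 lower by the exact binomial test. In the negative binomial test of edgeR 6 were higher and 6 lower at a coefficient of variation of 0.1, and 3 and 2 at the estimate of 0.162, which comes from the same difference. On total sense counts 77 were higher and 101 lower. Mir221 was not called under any alternative tried. Mir222 was called lower on total sense counts only, with an adjusted p between 0.0209 and 1 over the alternatives (exact binomial and edgeR). Mir144 lost its call in edgeR at both coefficients. The third place of the pair among 20 clusters became rank 4 of 32 with at least 10 counts per member. Depth limits the precision of the pair to about the intervals given. No paired analysis was possible because the labels hold a single group.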
